A study of Mus musculus with 18 samples.

Results

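The genes described here are 10 genes of blood vessel lining cells, chosen by name with earlier results of these data known. Of these, 6 are general endothelial genes (Pecam1, Cdh5, Kdr, Flt1, Tek and Tie1) and 4 are transporters of the blood-brain barrier (Slco1c1, Slco1a4, Mfsd2a and Abcb1a). They were looked up by symbol in the count tables of the spinal dorsal horn and the colon. The dorsal horn table held 8 of them among 15193 genes, and the colon table held 7 among 14987. Pecam1 and Abcb1a in both tissues, and Slco1a4 in the colon, were not analysed here. Every member found also passed the filter on low counts.

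All mice were wild type (WT). The nivolumab group carried a bone cancer and was treated with nivolumab, which was raised against the human form of PD-1, a receptor that restrains T cells. The cancer group carried a bone cancer and received control IgG, and the sham group received control IgG without the cancer. Each group gave 3 libraries of bulk RNA per tissue, 18 in all. The labels give no age, dose, time after treatment or tumour line, and do not say that the numbered libraries came from separate mice, so p-values measure only the spread between these libraries, which may be technical. In bulk tissue, fewer endothelial cells and less RNA per cell cannot be told apart.

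Endothelial cells of every organ are joined by VE-cadherin, the product of Cdh5, and sense growth factors through the VEGF receptors (Kdr, Flt1) and the angiopoietin receptor pair (Tek, Tie1). In brain and spinal cord these cells also form a barrier: tight junctions seal the gaps between them, and transporters decide which solutes cross. This state is kept up by Wnt ligands from neighbouring neural cells, acting through beta-catenin in the endothelium. Mfsd2a carries lysophosphatidylcholine lipids with omega-3 fatty acids into the brain and restrains transcytosis, Slco1c1 carries thyroxine, and Slco1a4 carries a wide range of organic anions. Slco1c1 is also expressed by astrocytes and Mfsd2a by the liver, so neither is a marker of endothelium alone.

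The start site regions of 4 members are shown because the tissue comparison turns on them: Flt1, Slco1c1 and Mfsd2a separated the tissues, and Kdr, the other VEGF receptor, did not. RefSeq windows of GRCm38.p6, from 250 bases before the start site to 50 after it, were matched for 8 of the 10 members and for 7 of the 8 measured. They are written 5′ to 3′ on the strand of the gene. Capitals mark matches, on either strand, to core letters of factor families active in endothelium or Wnt signalling and of the TATA box: the ETS family binds around CGGAAG and also around AGGAAG, the SOX family around ACAAAG, TCF and LEF factors around CTTTGA, FOX factors around TAAACA, and TATAAA is the core of the TATA box.
Flt1 is at chr5:147725962-147726261, minus strand, Kdr at chr5:75978406-75978705, minus strand, Slco1c1 at chr6:141524104-141524403, plus strand, and Mfsd2a at chr4:122961139-122961438, minus strand.
Flt1: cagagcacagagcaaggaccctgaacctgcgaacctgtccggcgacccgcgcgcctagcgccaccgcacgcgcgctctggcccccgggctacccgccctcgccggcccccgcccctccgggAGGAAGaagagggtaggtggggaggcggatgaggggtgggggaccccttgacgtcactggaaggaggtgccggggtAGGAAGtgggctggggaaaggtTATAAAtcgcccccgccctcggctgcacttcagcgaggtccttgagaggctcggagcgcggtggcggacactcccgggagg
Kdr: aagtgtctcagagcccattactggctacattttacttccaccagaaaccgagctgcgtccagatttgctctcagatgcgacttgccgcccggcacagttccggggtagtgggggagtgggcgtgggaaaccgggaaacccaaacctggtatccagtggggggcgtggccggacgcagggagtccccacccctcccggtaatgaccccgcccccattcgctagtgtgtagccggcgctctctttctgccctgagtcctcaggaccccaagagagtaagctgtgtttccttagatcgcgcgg
Slco1c1: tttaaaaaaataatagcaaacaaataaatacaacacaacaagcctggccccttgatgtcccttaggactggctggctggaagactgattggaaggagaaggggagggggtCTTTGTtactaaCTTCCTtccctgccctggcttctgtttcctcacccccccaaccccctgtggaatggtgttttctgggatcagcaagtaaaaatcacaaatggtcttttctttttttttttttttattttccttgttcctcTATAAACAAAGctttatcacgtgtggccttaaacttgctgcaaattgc
Mfsd2a: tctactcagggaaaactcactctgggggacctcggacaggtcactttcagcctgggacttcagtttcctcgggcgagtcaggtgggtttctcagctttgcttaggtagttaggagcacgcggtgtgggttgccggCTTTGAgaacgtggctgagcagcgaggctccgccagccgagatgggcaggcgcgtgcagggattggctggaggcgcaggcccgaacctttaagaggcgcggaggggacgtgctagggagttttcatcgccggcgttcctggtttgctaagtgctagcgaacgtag

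Counted from the start site, with negative positions before it, the Flt1 window held the ETS letters at −129 and −53 and the TATA letters at −31. The Kdr window held none of the searched letters. In the Slco1c1 window the TATA, FOX and SOX letters overlapped within the first bases after the start site, with a further SOX match at −140 and an ETS match at −128. The Mfsd2a window held the TCF/LEF letters once, at −115. Among all 32851 windows, CGGAAG occurred in 16.9%, AGGAAG in 35.4%, ACAAAG in 18.7%, CTTTGA in 16%, TAAACA in 13.4% and TATAAA in 13.6%, so each is a common string. GC content was 70.7% in the Flt1 window, 60.7% in that of Kdr, 60.3% in that of Mfsd2a and 42% in that of Slco1c1, against a median of 52.7% over all windows. The Slco1c1 window had 1 CpG, whereas those of Flt1, Mfsd2a and Kdr had 29, 22 and 19.

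Dorsal horn libraries held between 21855085 and 29071908 counts, and colon libraries between 20896854 and 30803957. The tissues matched their labels: 8 astrocyte markers had a mean of 8.16 to 8.70 log2 CPM (CPM, counts scaled to library size) in dorsal horn libraries and of 3.02 to 3.92 in colon libraries, and 7 markers of colon epithelium had −1.47 to 0.52 and 9.93 to 11.10. Some dorsal horn libraries stood apart. The mean of 12 markers of sensory ganglion neurons, which lie outside the cord, was 6.49 to 7.18 log2 CPM in the nivolumab libraries, 5.59 in cancer 3 and 5.46 in sham 3, and 1.33 to 1.53 in the other 4. Markers of Schwann cells were also highest in the nivolumab libraries, at 5.33 to 5.58, against 3.21 to 4.10 in cancer and 3.81 to 4.83 in sham. Summed markers of choroid plexus were 46.0 to 88.4 CPM in nivolumab, 10.3 to 20.9 in cancer and 8.26 to 21.7 in sham libraries, and those of meningeal and perivascular fibroblasts were 138.5 to 184, 109 to 114 and 107 to 161 CPM in nivolumab, cancer and sham. The mean of 6 skeletal muscle markers was 3.50 to 6.75 log2 CPM in the nivolumab libraries, 5.08 in cancer 2, 4.29 in sham 3 and −1.31 to 1.66 in the other 4. Of the 8 astrocyte markers, 4 were called lower in nivolumab against cancer and 3 against sham, and none higher. The shares of all genes called lower were 8.60% and 3.84%. Summed red blood cell markers were 219.5 to 291.3 CPM in nivolumab, 109 to 221 in cancer and 738 to 1274 in sham libraries. Of these 5 markers, 5 were called lower in nivolumab against sham and 4 in cancer against sham. The shares of all genes called lower were 3.84% and 0.228%. The part of this marker difference in the member comparisons with sham was not tested. Dorsal horn cancer 2 and colon cancer 3 had low values of many members, and colon cancer 1 had high values; member results that rest on these libraries are also given without them.

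Within tissues, a gene is called where the Benjamini-Hochberg adjusted p over all genes tested is under 0.05 by edgeR's quasi-likelihood test, fitted on the 9 libraries of the tissue. CPM values are scaled by TMM factors within a tissue, and values of a group are means ± SD of n = 3. Fold changes are log2 with their standard error (SE).

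In the dorsal horn, Mfsd2a was the only member called in any of the 3 comparisons. It was 1.61-fold lower in nivolumab than in sham libraries. The general endothelial genes were not called in any comparison, and neither were Slco1c1 and Slco1a4.

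**Figure D1:**
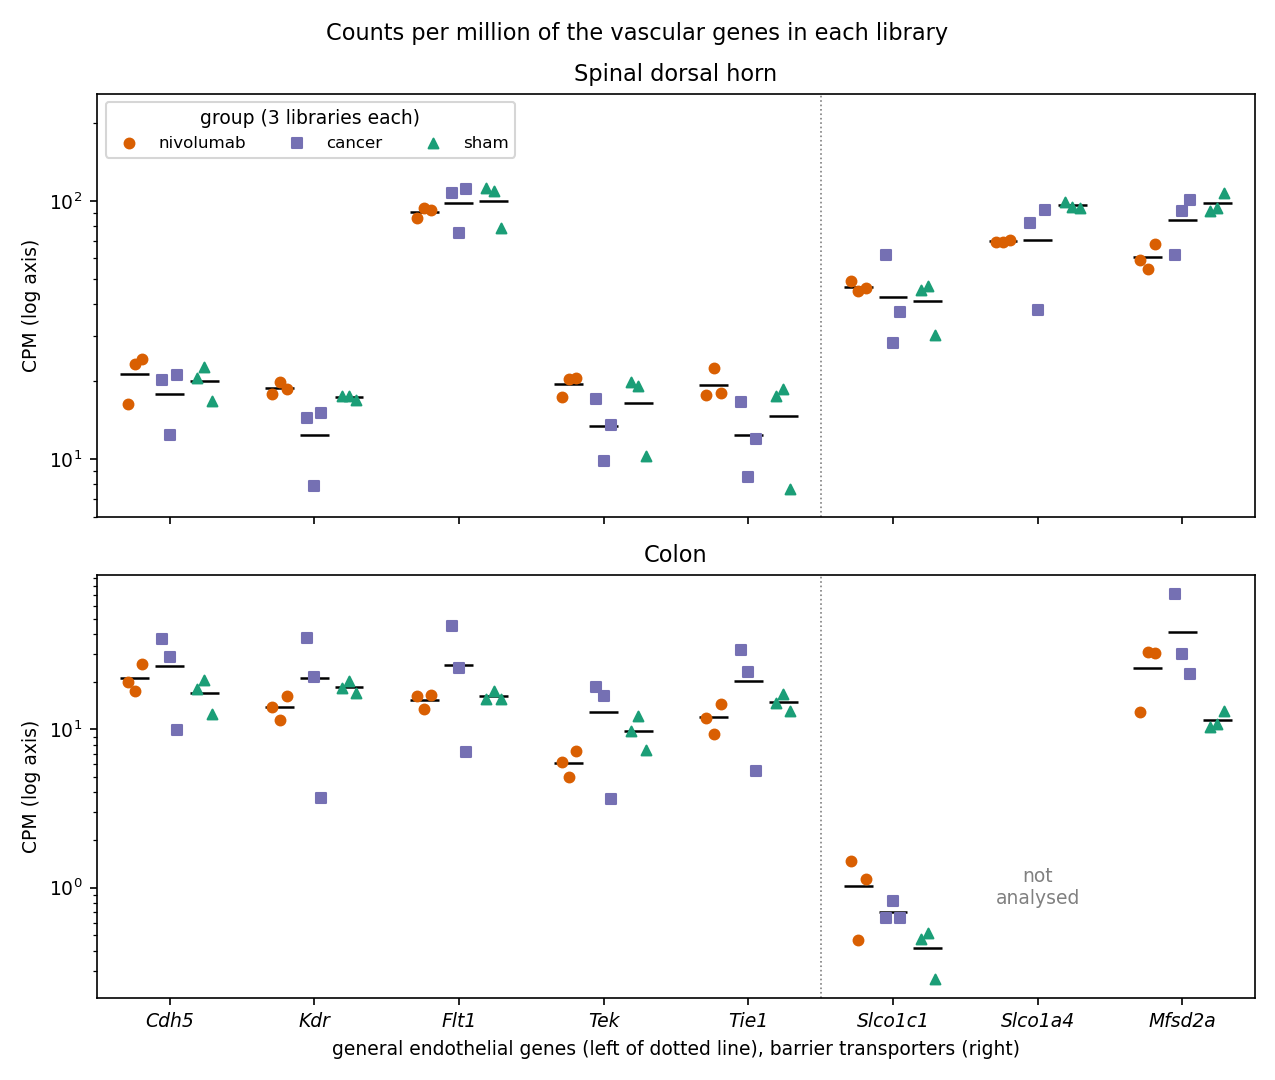
CPM (log axis) of each member in every library of the spinal dorsal horn (top) and colon (bottom), with a bar at the group mean. Dorsal horn Mfsd2a was 54.3 to 68.1 CPM in nivolumab libraries, below the 91.7 to 107.3 CPM of sham, and in the colon cancer 3 was the lowest library for each of the 5 general genes.

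Mfsd2a, on chromosome 4 (122946850 to 122961188 in GRCm38), had 59.1, 54.3 and 68.1 CPM in the nivolumab libraries, 61.9, 91.3 and 100.3 in cancer libraries and 91.7, 93.8 and 107.3 in sham libraries. All nivolumab libraries lay below all sham libraries, while cancer 1 fell inside the nivolumab range. Nivolumab averaged 60.5 ± 7.01 CPM, against 97.6 ± 8.48 in sham (log2 fold change −0.69, SE 0.17, 95% interval −1.10 to −0.28, adjusted p = 0.0406). Of all genes tested, 8.51% were called in this comparison, 3.84% of them as lower, so 1 member of 8 is close to the background share. Against cancer libraries, at 84.5 ± 20.1 CPM, the difference was −0.48 (SE 0.17, adjusted p = 0.0809) and was not called. It passed with same-numbered libraries as pairs (−0.47, adjusted p = 0.0282), with the ganglion marker mean as a covariate (−0.77, adjusted p = 0.0245) and without cancer 1 (−0.66, adjusted p = 0.00709), and was −0.34 without cancer 3. Cancer differed from sham by −0.21 (SE 0.17, adjusted p = 0.647).

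The Mfsd2a call against sham did not pass without sham 1 (adjusted p = 0.0928), sham 2 (0.0795), sham 3 (0.11), cancer 2 (0.0625), nivolumab 1 (0.154), nivolumab 2 (0.119) or nivolumab 3 (0.0816), nor without sham 3 and cancer 3 together (0.0656), although the fold change stayed between −0.78 and −0.59. With the ganglion marker mean as a covariate it was −0.999 (adjusted p = 0.0143). The libraries with intermediate ganglion marker levels, sham 3 and cancer 3, had the highest Mfsd2a of their groups. Every nivolumab library had a higher ganglion marker mean (6.49 to 7.18 log2 CPM) than any other library (at most 5.59). The covariate thus cannot separate this marker level from the group.

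**Figure D2:**
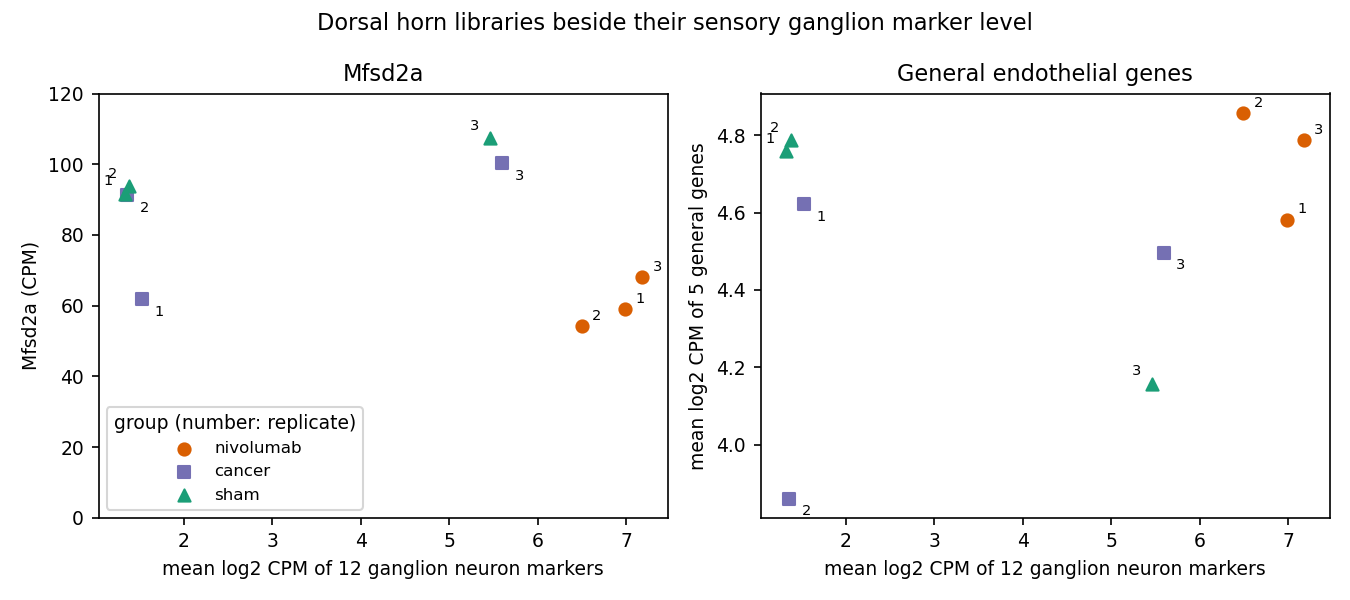
Each point is a dorsal horn library, labelled with its replicate number; the x axis is the mean log2 CPM of 12 sensory ganglion neuron markers, and the y axes are Mfsd2a in CPM (left) and the mean log2 CPM of the 5 general endothelial genes (right). Sham 3 and cancer 3, at 5.46 and 5.59 on the x axis, had 107.3 and 100.3 CPM of Mfsd2a, above every nivolumab library. The nivolumab libraries lay at 6.49 to 7.18 on the x axis, beyond all others, so marker level and group cannot be told apart there.

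Slco1a4, on chromosome 6 (141805440 to 141856199), had 69.5, 69.1 and 70.5 CPM in nivolumab libraries, 82.0, 37.9 and 91.9 in cancer libraries and 99.2, 94.98 and 93.5 in sham libraries. Nivolumab libraries were nearly equal to each other and all below sham, and cancer libraries, also all below sham, spread widely because of cancer 2. The means were 69.7 ± 0.742, 70.6 ± 28.7 and 95.9 ± 2.96 CPM in nivolumab, cancer and sham. Slco1a4 was not called in nivolumab against sham (−0.46, SE 0.28, adjusted p = 0.342) with a spread shared over the 3 groups. It was called there without cancer 2 (−0.45, adjusted p = 0.00893) and in a fit of these 2 groups alone (adjusted p = 0.00592). In nivolumab against cancer it differed by −0.02 (SE 0.28), and by −0.32 (adjusted p = 0.0282) without cancer 2. Related Slco1a genes lie beside Slco1a4, and how the authors' counting divided reads shared among them is not given in the sources used here.

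Slco1c1, on chromosome 6 (141524368 to 141570177), had 49.0, 44.7 and 45.9 CPM in nivolumab, 61.6, 28.2 and 37.3 in cancer and 45.3, 46.9 and 30.3 in sham libraries. The groups overlapped, and the lowest values were those of cancer 2 and sham 3. Its fold changes were 0.19 (SE 0.28) in nivolumab against sham, 0.13 (SE 0.28) against cancer, and 0.05 (SE 0.28) in cancer against sham. Without cancer 2 the fold change against cancer was −0.092, and that of cancer against sham 0.29. The 95% interval of nivolumab against sham, −0.50 to 0.88, allows a change of the size seen for Mfsd2a only in the upward direction.

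Among the receptors, Kdr (VEGFR2, chromosome 5, 75932827 to 75978458), the main signalling receptor for VEGF-A, had 17.9, 19.9 and 18.8 CPM in nivolumab, 14.4, 7.92 and 15.1 in cancer and 17.6, 17.6 and 16.9 in sham libraries. The cancer libraries lay below both other groups, with cancer 2 lowest, and nivolumab lay just above sham. Kdr differed by 0.60 (SE 0.20, adjusted p = 0.0681) in nivolumab against cancer and by −0.48 (SE 0.20, adjusted p = 0.352) in cancer against sham. Both comparisons use the same cancer libraries. Without cancer 3 the first passed (0.76, adjusted p = 0.0463), and without cancer 2 it was 0.36 and the second −0.22. In nivolumab against sham Kdr differed by 0.12 (SE 0.20).

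Flt1 (VEGFR1, chromosome 5, 147561604 to 147726011), which binds VEGF-A tightly and limits its supply to Kdr, had 85.9, 94.0 and 92.4 CPM in nivolumab, 107, 75.2 and 111 in cancer and 112, 110 and 78.3 in sham libraries. The groups overlapped, with cancer 2 and sham 3 lowest. All 3 fold changes were between −0.14 and −0.03 (SE 0.17 each), the smallest set among the receptors. Without cancer 2 they were −0.27 in nivolumab against cancer and 0.14 in cancer against sham.

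Tek (TIE2, chromosome 4, 94739289 to 94874976), the receptor for angiopoietins, had 17.4, 20.5 and 20.6 CPM in nivolumab, 17.0, 9.86 and 13.6 in cancer and 19.98, 19.2 and 10.3 in sham libraries. Tie1 (chromosome 4, 118471191 to 118490061), its co-receptor, had 17.7, 22.6 and 18.1 CPM in nivolumab, 16.7, 8.56 and 11.97 in cancer and 17.6, 18.8 and 7.70 in sham libraries. Both genes were low in cancer 2 and in sham 3, and their nivolumab libraries lay above all cancer libraries. In nivolumab against cancer Tek differed by 0.53 (SE 0.27, adjusted p = 0.195) and Tie1 by 0.65 (SE 0.35, adjusted p = 0.228), which became 0.34 and 0.44 without cancer 2. Against sham the differences were 0.24 (SE 0.27) and 0.40 (SE 0.35). Of these libraries sham 3 had a ganglion marker mean of 5.46 log2 CPM and cancer 2 of 1.36, and both had high skeletal muscle markers; the part of these markers in the low Tek and Tie1 was not tested.

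Cdh5 (chromosome 8, 104101625 to 104144511) had 16.4, 23.4 and 24.4 CPM in nivolumab, 20.3, 12.4 and 21.2 in cancer and 20.6, 22.7 and 16.8 in sham libraries. The groups overlapped, and cancer 2 was again lowest. Its fold changes were 0.10 (SE 0.22) in nivolumab against sham, 0.26 (SE 0.22) against cancer and −0.16 (SE 0.22) in cancer against sham. Without cancer 2 the second was 0.046 and the third 0.062. An antisense gene model overlaps Cdh5, and without a stated strand setting their reads cannot be told apart.

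Counted together, none of the 8 dorsal horn members was called in cancer against sham, where 0.323% of genes were called; at an unadjusted p under 0.05 there was 1, Kdr, against 13.1% of genes, and DESeq2 called none. Kdr and Slco1a4 were lower in every cancer than in every sham library, as were 8.34% of genes. In nivolumab against cancer edgeR called none of 8, where it called 17.2% of genes. At an unadjusted p under 0.05 Kdr and Mfsd2a passed, against 34.2% of genes, and DESeq2 called the same pair (adjusted p = 0.0243 and 0.0210) among 3198 genes called, so 2 of 8 is near its background too. Kdr, Tek and Tie1 had no overlap and were higher in nivolumab, as were 20.6% of genes. In nivolumab against sham, Mfsd2a alone passed an unadjusted p under 0.05, as did 26.1% of genes, Mfsd2a and Slco1a4 were lower without overlap, as were 18.1% of genes, and Kdr higher, as were 17.1%.

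**Figure D3:**
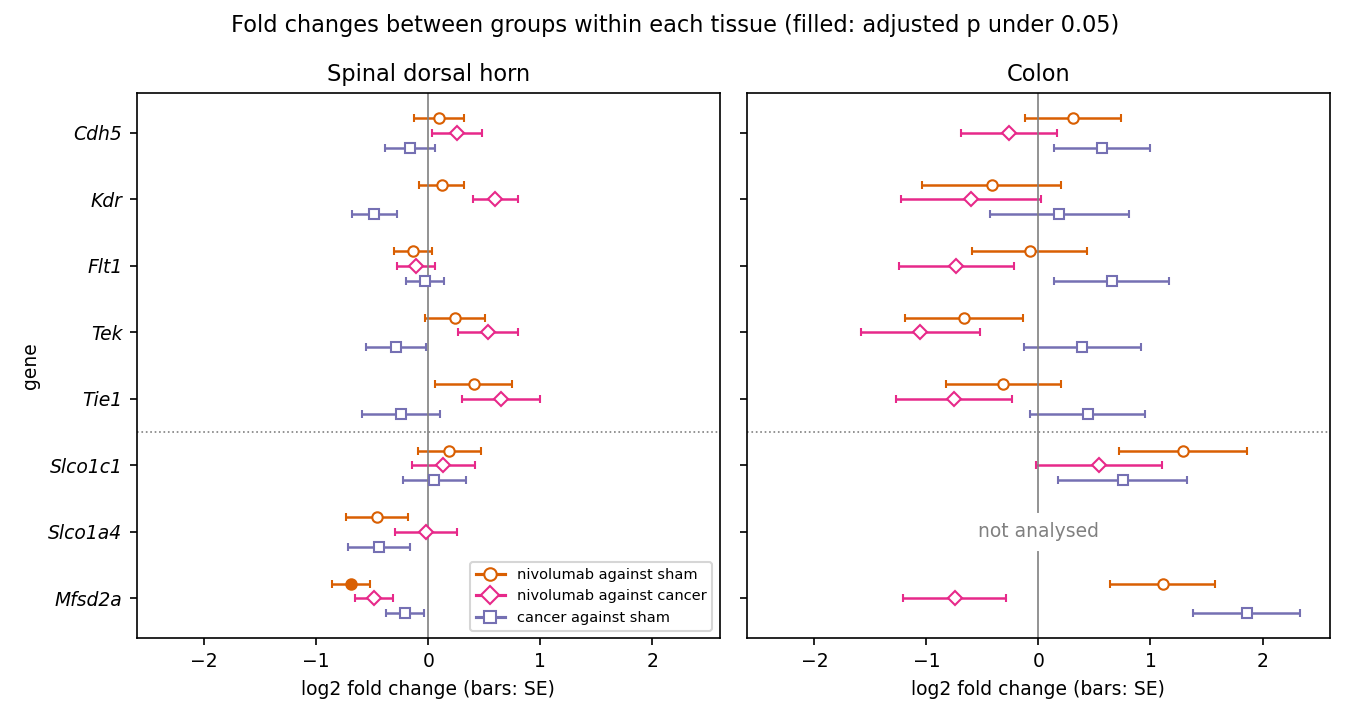
Fold changes (log2) with standard errors for each member in the 3 comparisons within the dorsal horn (left) and the colon (right); filled symbols passed an adjusted p of 0.05. Mfsd2a in dorsal horn nivolumab against sham (−0.69, SE 0.17) is the 1 filled symbol, and the colon errors are wider throughout.

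In the colon no member was called, and neither was any of the 13445 genes tested. The 5 general genes varied together across libraries, most of all within the cancer group, while Mfsd2a was higher in every cancer than in every sham library.

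Kdr had 13.8, 11.5 and 16.1 CPM in nivolumab, 37.8, 21.5 and 3.68 in cancer and 18.4, 20.04 and 16.9 in sham colons. Flt1 had 16.2, 13.5 and 16.4 CPM in nivolumab, 44.9, 24.5 and 7.16 in cancer and 15.6, 17.4 and 15.6 in sham colons. For both receptors cancer 1 was the highest and cancer 3 the lowest of all 9 libraries, so the cancer range enclosed the other groups. Tek had 6.22, 5.005 and 7.27 CPM in nivolumab, 18.5, 16.3 and 3.63 in cancer and 9.81, 12.1 and 7.41 in sham colons. Tie1 had 11.8, 9.41 and 14.5 CPM in nivolumab, 31.8, 22.8 and 5.47 in cancer and 14.6, 16.7 and 13.0 in sham colons. Cdh5 had 19.9, 17.4 and 25.7 CPM in nivolumab, 37.1, 28.5 and 9.89 in cancer and 17.9, 20.4 and 12.5 in sham colons. These genes also had their lowest value in cancer 3 and their highest in cancer 1.

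The fold changes of the 5 general genes in the colon were 0.19 to 0.65 in cancer against sham (SE 0.43 to 0.62, adjusted p = 0.619 to 0.913) and −1.05 to −0.26 in nivolumab against cancer (SE 0.43 to 0.62, adjusted p = 0.530 to 0.806). In nivolumab against sham they were −0.66 to 0.31. Kdr and Tek were lower in every nivolumab than in every sham colon, as were 6.11% of genes, with fold changes of −0.41 (SE 0.62) and −0.66 (SE 0.53). These values turned on 2 libraries. Without cancer 3 the cancer against sham folds ran from 0.68 for Kdr to 1.09 for Flt1, and those of nivolumab against cancer from −1.49 for Tek to −0.64 for Cdh5. Without cancer 1 they ran from −0.53 for Kdr to 0.20 for Cdh5, and from −0.72 for Tek to 0.11 for Kdr. Markers of gut smooth muscle had a mean of 10.93 log2 CPM in cancer 3, the highest of the 9 libraries, against 9.29 and 10.23 in cancer 1 and cancer 2, and macrophage markers of 2.23, the lowest. Their part in the low endothelial values of cancer 3 was not tested.

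Mfsd2a had 12.9, 30.6 and 30.2 CPM in nivolumab, 71.6, 29.8 and 22.4 in cancer and 10.3, 10.8 and 13.1 in sham colons. Every cancer library exceeded every sham library, and nivolumab 1 lay within the sham range. Cancer averaged 41.3 ± 26.5 CPM and sham 11.4 ± 1.52 (log2 fold change 1.86, SE 0.48, adjusted p = 0.260 by edgeR and 0.00809 by DESeq2). The mean was carried by cancer 1, without which the fold change was 1.21 (adjusted p = 0.365), against 2.15 without cancer 3. Cancer 3, the lowest library for the general genes, still had more Mfsd2a than any sham library. In nivolumab against sham the difference was 1.11 (SE 0.47, adjusted p = 0.750). Slco1c1 was near its detection limit in the colon, with 37, 14 and 34 counts in nivolumab, 15, 19 and 13 in cancer and 15, 13 and 8 in sham libraries, or 0.267 to 1.48 CPM. Its cancer and nivolumab values were mostly above sham, with fold changes of 0.75 (SE 0.58) for cancer and 1.29 (SE 0.57, adjusted p = 0.776) for nivolumab.

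Counts by comparison were as follows in the colon. In cancer against sham 0 of 7 members and 0% of genes were called by edgeR; at an unadjusted p under 0.05 there was 1 member (Mfsd2a), against 10.9% of genes, and DESeq2 called 1 member and 384 genes. Mfsd2a and Slco1c1 were higher without overlap, as were 6.96% of genes. In nivolumab against cancer 0 of 7 members passed an unadjusted p under 0.05, against 9.84% of genes, and DESeq2 called 0 members and 186 genes. In nivolumab against sham 1 member (Mfsd2a) passed an unadjusted p under 0.05, against 6.45% of genes, and DESeq2 called 0 members and 144 genes.

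The transporters were then set against the general genes of the same library, as the mean log2 CPM of the transporters minus that of the 5 general genes. This is a description with no test. In the dorsal horn the difference was 1.29, 0.93 and 1.13 in nivolumab libraries, 1.46, 1.67 and 1.64 in cancer libraries and 1.46, 1.44 and 1.92 in sham libraries. All nivolumab libraries lay below all others. The general mean was 4.74 ± 0.14 log2 CPM in nivolumab, 4.33 ± 0.41 in cancer and 4.57 ± 0.36 in sham libraries, while the transporter mean was 5.86 ± 0.07, 5.92 ± 0.34 and 6.17 ± 0.09. Relative to sham, the lower difference of the nivolumab libraries was seen for Slco1a4 and Mfsd2a, at 1.38 ± 0.14 and 1.17 ± 0.23 against 2.02 ± 0.33 and 2.04 ± 0.48. For Slco1c1 the difference was 0.80 ± 0.21 in nivolumab and 0.76 ± 0.01 in sham. The general mean of nivolumab was also above that of sham, which sham 3 lowered (4.16, against 4.76 and 4.79 in sham 1 and sham 2). Of the 28 further general endothelial genes given below, 23 had negative fold changes in nivolumab against sham, so a higher endothelial level was not general. Relative to cancer, the group transporter means were close, and the lower difference of nivolumab went mostly with its higher general mean. This split rests on cancer 2, which was lowest in both means (5.53 for transporters, 3.86 for general genes). Cancer 1 and cancer 3 had transporter means of 6.09 and 6.13, above every nivolumab library (5.79 to 5.92). The general mean of cancer 1, 4.62, lay within the nivolumab range (4.58 to 4.86), and that of cancer 3 lay below it. The Mfsd2a difference averaged 2.05 ± 0.67 in cancer, that of Slco1a4 1.72 ± 0.32 and that of Slco1c1 1.005 ± 0.301. The joint differences of sham 3 and cancer 2 were high partly by construction, as their general genes were low.

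In the colon, with Slco1c1 and Mfsd2a as the transporters, the difference was −1.51, −1.37 and −1.30 in nivolumab, −2.18, −2.11 and −0.48 in cancer and −2.65, −2.76 and −2.58 in sham libraries. All cancer and nivolumab libraries lay above all sham libraries, and cancer 3 was highest because its general genes were low. For Mfsd2a alone the difference was 0.86 ± 0.77 in nivolumab, 1.18 ± 0.80 in cancer and −0.38 ± 0.38 in sham. There nivolumab 1 (0.02) lay below sham 3 (0.06), so these groups overlapped. The separation of nivolumab from sham in the joint difference thus depends on Slco1c1, which was near its detection limit. Mfsd2a in nivolumab against sham thus had opposite signs in the dorsal horn and the colon, a difference tested with the interaction given later.

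**Figure D4:**
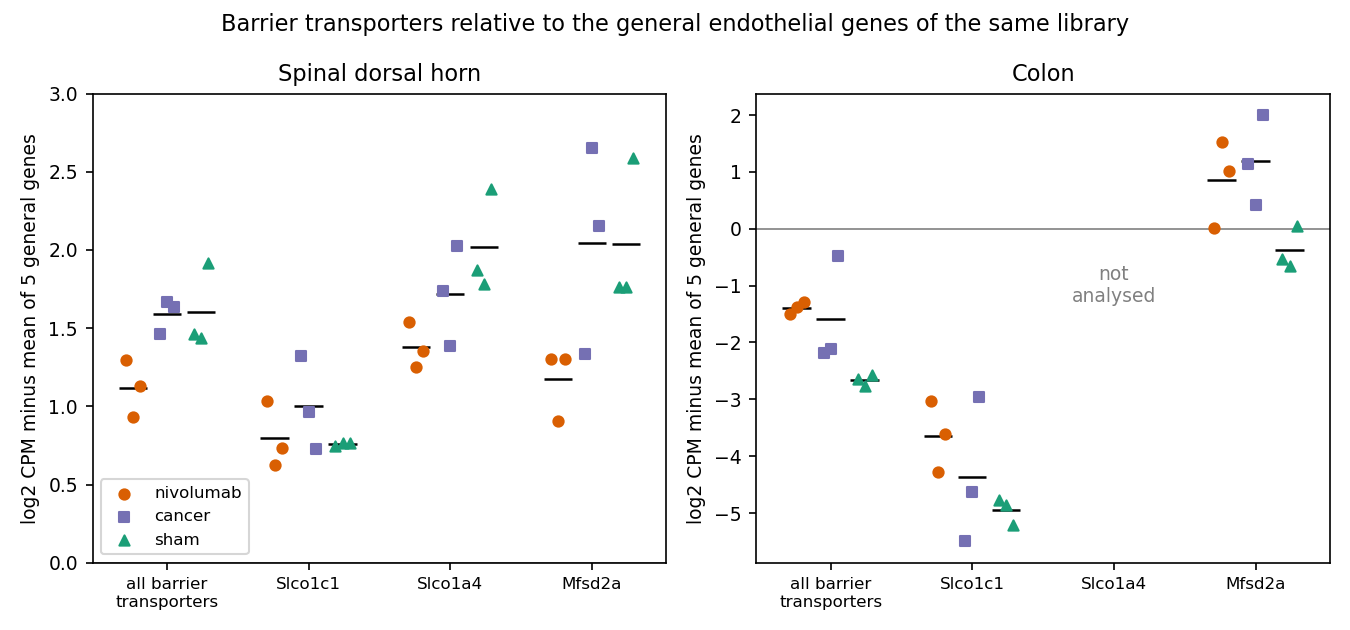
For each library, the log2 CPM of the transporters minus the mean of the 5 general endothelial genes of that library, with a bar at the group mean, in the dorsal horn (left) and the colon (right). In the dorsal horn the nivolumab libraries had the lowest overall difference (0.93 to 1.29), and in the colon the sham libraries did (−2.76 to −2.58).

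Across the 9 dorsal horn libraries, general genes correlated with one another with Pearson r of 0.42 to 0.97 (median 0.72, 10 pairs), highest for Tek with Tie1. In the colon the range was 0.80 to 0.97 (median 0.89). Mfsd2a stood apart in the dorsal horn, with r of −0.69 with Tie1, −0.66 with Slco1c1, −0.58 with Tek and 0.23 with Slco1a4. Slco1c1 followed Tie1 (0.84) and Tek (0.82). In the colon Mfsd2a had r of 0.23 to 0.56 with the general genes and Slco1c1 −0.03 to 0.42. These are descriptions over 9 libraries that share groups, depth and scaling.

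For the next correlations each member's log2 CPM was centred and divided by its SD over the 9 libraries, and then averaged within its class. The genes most like this general class score in the dorsal horn, with r of 0.93 to 0.97, were Tnfsf10, the endothelial adaptor She, Enpep, Dock6 and Atf7. Those most like the transporter score, with r of 0.92 to 0.94, were the endothelial receptor Adgrl4, the tight junction gene Ocln, the hypoxia factor Epas1, Kank3 and the amino acid transporter Slc7a5. In the colon Adgrf5, Arhgef15, Wnt5a, Sema3f and Fgd5 were most like the general class (0.97 to 0.98), and Plaur, Socs3, Card14 and Eif4g3 were among the 5 most like the transporters (0.93 to 0.98). Such r are high partly by selection, as they are the highest of many genes over 9 libraries. The transporters correlated with one another at −0.66 to 0.40 in the dorsal horn and at 0.20 in the colon, so their score is not a shared pattern.

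The sham libraries of both tissues were compared in 1 fit of all 18 libraries over 14164 genes. Slco1c1, Mfsd2a and Flt1 were higher in the dorsal horn than in the colon, and the other 4 shared members were not called. Levels are given here as RPKM (CPM per kilobase of merged exons), so comparisons between genes depend on the exon length used. As the tissues differ in most genes, 75.2% of all genes were called and 37.0% were called as higher in the dorsal horn, against 3 of 7 members, all higher. These 3 also had no overlap, as did 40.2% of genes in that direction.

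**Figure D5:**
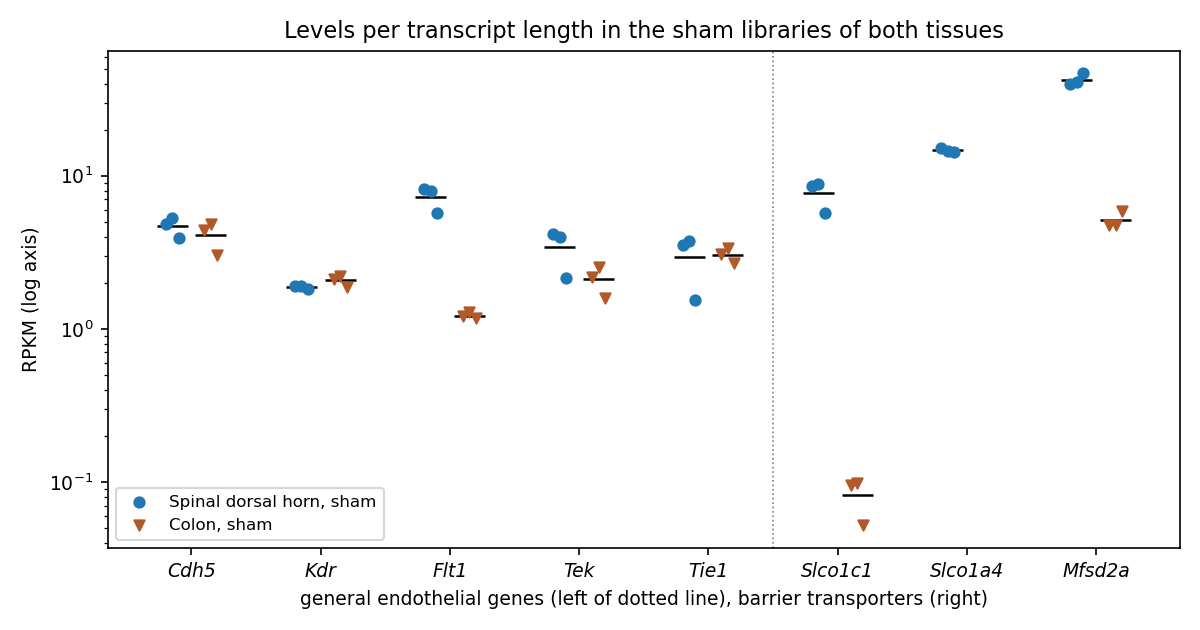
RPKM (log axis) of each member in the 3 sham libraries of the dorsal horn and the 3 of the colon, with a bar at the mean. Cdh5, Kdr, Tek and Tie1 overlapped between the tissues, whereas Flt1, Slco1c1 and Mfsd2a were higher in every dorsal horn library.

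Slco1c1 had 8.56, 8.86 and 5.72 RPKM in sham dorsal horn and 0.0955, 0.0985 and 0.0520 in sham colon, a 93.4-fold difference (log2 6.54, SE 0.44, adjusted p = 7.76e-09). Mfsd2a had 39.9, 40.8 and 46.6 RPKM in dorsal horn and 4.77, 4.73 and 5.89 in colon, 8.27-fold apart (3.05, SE 0.39, adjusted p = 5.24e-06). Within the colon these transporters were far apart in level, and Mfsd2a exceeded every receptor by RPKM. By CPM in sham colon Mfsd2a (11.4) lay above Tek (9.78) and below Tie1 (14.8), Flt1 (16.2) and Kdr (18.4). Flt1 had 8.14, 7.94 and 5.67 RPKM in dorsal horn and 1.21, 1.28 and 1.17 in colon, 5.95-fold apart (2.57, SE 0.42, adjusted p = 6.42e-05). Slco1a4, measured in the dorsal horn, had 15.2, 14.5 and 14.3 RPKM there.

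The other general genes were close in level between the tissues. Cdh5 had 4.67 ± 0.697 RPKM in dorsal horn and 4.09 ± 0.950 in colon (0.19, SE 0.37, 95% interval −0.61 to 0.99, adjusted p = 0.646). Kdr had 1.88 ± 0.0446 and 2.07 ± 0.162 RPKM (−0.14, SE 0.50, interval −1.22 to 0.95), and Tie1 2.93 ± 1.21 and 3.05 ± 0.348 (−0.06, SE 0.47, interval −1.08 to 0.97), in dorsal horn and colon. Tek had 3.43 ± 1.13 RPKM in dorsal horn and 2.10 ± 0.481 in colon (0.71, SE 0.44, adjusted p = 0.158), and passed without colon cancer 3 (adjusted p = 0.0273), a library that enters only the estimate of spread. These intervals include differences of about the size seen for Tek, so equal levels were not shown.

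Ordered by RPKM in the sham dorsal horn, the members ran from Mfsd2a (42.5 ± 3.64) through Slco1a4 (14.6 ± 0.470), Slco1c1 (7.71 ± 1.73), Flt1 (7.25 ± 1.37), Cdh5, Tek and Tie1 to Kdr. Slco1c1 and Flt1 overlapped, as did Cdh5 with Tek, Tek with Tie1 and Tie1 with Kdr. In the sham colon the order was Mfsd2a (5.13 ± 0.659), Cdh5, Tie1, Tek, Kdr, Flt1 (1.22 ± 0.0553) and Slco1c1 (0.0820 ± 0.0260). There Mfsd2a overlapped Cdh5, Cdh5 overlapped Tie1 and Tek overlapped Kdr. By RPKM, Flt1 therefore stood above all other general genes in the cord and below them in the colon. The colon rank depends on its merged exon length of 13504 bases. By CPM in sham colon Flt1 (16.2) lay above Tek (9.78) and Tie1 (14.8) and below Cdh5 (17.0) and Kdr (18.4).

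Whether group differences were unlike in the 2 tissues was tested as an interaction in the same fit, as the dorsal horn fold minus the colon fold. No member was called in cancer against sham (0.155% of genes called), nivolumab against cancer (0.127%) or nivolumab against sham (0.184%). Mfsd2a came closest, at −2.09 (SE 0.51, 95% interval −3.21 to −0.97, adjusted p = 0.142) for cancer against sham and −1.76 (SE 0.51, adjusted p = 0.177) for nivolumab against sham. Both use the same sham libraries, and DESeq2 called both (adjusted p = 0.00757 and 0.0303), among 331 and 506 genes called. Over the 18 fits that left out 1 library, the first ran from −2.39 without colon cancer 3, where edgeR called it (adjusted p = 0.0406), to −1.47 without colon cancer 1, and was called in no other. At an unadjusted p under 0.05 edgeR passed Mfsd2a in these 2 comparisons, against 10.9% and 12.7% of genes, and Tek and Tie1 in nivolumab against cancer, against 16.4%. The interaction of Tek there was 1.65 (SE 0.62, adjusted p = 0.218) and that of Tie1 1.46 (SE 0.67, adjusted p = 0.296). DESeq2 called no member in that comparison. The interaction of Kdr was 1.26 (adjusted p = 0.388). Without colon cancer 3, and in no other fit that left out 1 library, edgeR called Tek (2.07, adjusted p = 0.0361) and Kdr (1.74, adjusted p = 0.0374), whereas without colon cancer 1 they were 1.32 and 0.56.

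The other genes of the same pathways are given as counts from lists, each beside the median fold over all genes of between −0.05 and 0.07 in every comparison. No gene of these vascular lists was called in cancer against sham in the dorsal horn or in any comparison within the colon. Of 28 further general endothelial genes, such as Emcn, Erg, Eng and Cldn5, none was called in the other comparisons of the dorsal horn either. Shares of all genes called there were 17.2% in nivolumab against cancer and 8.51% in nivolumab against sham. The median fold of these 28 genes in the dorsal horn was 0.02 in nivolumab against cancer, −0.16 in nivolumab against sham and −0.22 in cancer against sham, and in the colon −0.41, −0.06 and 0.34. In the tissue comparison 12 of the 28 were called higher and 3 lower in the dorsal horn (median 0.78), beside 37.0% and 38.2% of all genes.

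Among 15 further transport genes of the barrier tested in the dorsal horn, 1 rose and 1 fell in nivolumab against sham, where 8.51% of all genes were called. Another 2 of the 15 passed in nivolumab against cancer, where 17.2% were, so both counts are near the background. Slc2a1, the glucose transporter of barrier endothelium and also of other cells, averaged 217 ± 31.5 CPM in nivolumab and 337 ± 13.5 in sham (−0.64, SE 0.11, adjusted p = 0.0129). Slc7a1, a carrier of cationic amino acids, rose by 0.25 (adjusted p = 0.0459). In nivolumab against cancer the efflux pump Abcg2 averaged 38.2 ± 3.04 and 25.3 ± 3.84 CPM in these groups (0.59, SE 0.11, adjusted p = 0.00884), and Lrp8 fell by 0.27 (adjusted p = 0.0179). Of 14 genes of the barrier's Wnt programme, Ndp, which encodes the ligand norrin, rose by 0.79 (adjusted p = 0.0351) and Ctnnb1, beta-catenin, by 0.25 (adjusted p = 0.0312) in nivolumab against cancer, and the other 12 did not pass, again close to the background share.

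Of 12 ligands and co-receptors of the VEGF and angiopoietin systems, Nrp1, the co-receptor of Kdr and a semaphorin receptor of neurons, averaged 32.2 ± 2.34 CPM in nivolumab, 18.9 ± 4.17 in cancer and 19.0 ± 3.00 in sham dorsal horn. It rose in nivolumab against cancer (0.77, SE 0.16, adjusted p = 0.0133) and against sham (0.76, SE 0.16, adjusted p = 0.0216), in comparisons that share the nivolumab libraries. Vegfb fell by 0.30 in nivolumab against cancer (adjusted p = 0.0270). None of 10 tight junction genes was called within the dorsal horn. Plvap, which forms the diaphragms of fenestrated vessels and is kept low in barrier endothelium, had 9.20 ± 0.961 CPM in nivolumab and 22.2 ± 9.27 in cancer (−1.27, SE 0.30, adjusted p = 0.0228), the 1 gene that passed of 6 in the list of fenestrated and peripheral endothelium. It went against its list: the other 5 fold changes were positive (median of the 6, 1.89) and did not pass, with Meox2 at 1.90 (adjusted p = 0.0570) and Gpihbp1 at 4.07 (adjusted p = 0.0740). Vwf, a clotting factor of vein and large vessel endothelium, had 21.1 ± 2.88 CPM in nivolumab and 78.2 ± 53.2 in cancer (−1.89, SE 0.46, adjusted p = 0.0331), the 1 of 10 arterial and venous genes. Its fold change was −1.17 without cancer 3 and −2.74 with the ganglion covariate, and it passed in 4 of the 9 fits that left out 1 library. The pericyte gene Rgs5 passed in nivolumab against cancer (0.44, adjusted p = 0.0462), alone of 10 mural genes, of which 8 had negative fold changes (median −0.13). Pdpn passed there as 1 of 4 lymphatic genes (0.69, adjusted p = 0.0355), and Efnb2, an arterial ligand, in nivolumab against sham (0.63, adjusted p = 0.0443). Of all genes, 17.2% were called in nivolumab against cancer and 8.51% in nivolumab against sham. The counts per list in this paragraph are near these shares.

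Of these 14 calls, that of Abcg2 passed in all 17 alternatives. Those of Slc2a1 and of Nrp1 against cancer were lost without nivolumab 1 (adjusted p = 0.0698 and 0.0594), and passed in every other alternative. The remaining 11 passed in 2 to 8 of the 9 fits that left out 1 library. Ganglion neuron and Schwann cell markers were highest in the nivolumab libraries, as given above. Of these markers, 3 of 12 and 4 of 10 were called higher in nivolumab against cancer, as were 8.63% of all genes. The part of these markers in the 14 calls was not tested gene by gene, apart from the covariate. With it, Lrp8, Vegfb and Rgs5 (against cancer) and Slc7a1 and Efnb2 (against sham) did not pass.

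In the sham tissue comparison 37.0% of all genes were called higher and 38.2% lower in the dorsal horn. None of the 6 genes of fenestrated and peripheral endothelium was called higher in the dorsal horn and 5 were called lower, with Plvap at 14.0 ± 2.13 CPM in dorsal horn and 43.1 ± 0.308 in colon. The ligand Wnt7b had 28.9 ± 7.84 CPM in dorsal horn and 0.0211 ± 0.0366 in colon, and the transporter Slc22a8 18.2 ± 5.998 and 0.0265 ± 0.0458. Other genes of these lists were lower in the dorsal horn, with log2 fold changes of −2.04 for Lrp5, −1.38 for Ctnnb1 and −1.23 for Lrp6, and of −4.52 for Slc40a1, −2.76 for Slc39a8 and −2.13 for Slc16a1. Of 13 Wnt programme genes 6 were higher and 4 lower, and of 15 transport genes 6 and 4, so neither list moved one way. Tight junction genes, which colon epithelium also expresses, were called lower for 6 of 10 and higher for 3, with Ocln at 10.05 ± 0.699 CPM in dorsal horn and 93.4 ± 22.2 in colon. Cldn5, the main claudin of barrier endothelium, had 24.5 ± 2.04 and 4.28 ± 2.45 CPM. CPM values in this paragraph were scaled within each tissue.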

How the data were processed

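RNA was extracted with TRIzol, reverse-transcribed with a SmartScribe kit and size-selected on beads, per the labels' protocols. FastQC 0.11.5, Trimmomatic, HISAT2, StringTie and the build GRCm38 are named in the submitters' processing notes. The counting tool, strand setting and annotation were not given in the sources used here. Per gene, the authors deposited whole-number counts, 1 table per tissue, with no normalisation. The members and gene lists were chosen with earlier results of these data known.

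Each tissue's 9 libraries were fitted with edgeR 4.0.16 (R 4.3.3): TMM factors, edgeR's default filter on low expression (13609 genes left in the dorsal horn, 13445 in the colon), robust quasi-likelihood tests, two-sided, with Benjamini-Hochberg adjustment over all genes tested and a threshold of 0.05. Tissues were compared in 1 fit of 18 libraries over 14164 genes. SE was the fold change over the root of its F statistic. The 95% intervals use the residual degrees of freedom alone, so they are slightly wider than the tests. Biological coefficients of variation were 0.170 for dorsal horn, 0.376 for colon and 0.294 over both. Log2 CPM used a prior count of 2. RPKM used merged exon lengths of the GENCODE annotation of GRCm38. Alternatives were RLE and upper-quartile factors, DESeq2 1.42.0, no filter, a replicate block, the 2 groups alone, each library left out, ganglion markers as a covariate, and sham 3 with cancer 3 left out. The fits were tested on simulated data. The simulated spread was the same for all fits and smaller than that measured in the colon and over both tissues. It therefore cannot show how those fits perform at their real spread. Genes of other lists are named where called, up to 4 a list, and the 5 genes most like each class by correlation; genes that this rule also picked are in some cases not reported here. Same-numbered dorsal horn cancer and nivolumab libraries deviated together from their group means (correlations of 0.14, 0.32 and 0.26 over 11998 genes), so the value with the replicate block is given where it changes a call there; the labels do not say what a number marks. Libraries of a group always differed beyond sampling noise (chi-square over degrees of freedom of at least 9.85 for dorsal horn pairs and 73.1 for colon pairs). Without molecular identifiers, counts include PCR copies.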

Additional observations from a re-analysis of the deposited data

How the results depend on the processing

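Over all members, comparisons and alternatives, 1282 fold changes kept their direction and side of the threshold, 17 passed only under the alternative, 8 no longer passed and 32 changed sign; all members that changed sign had fold changes that did not pass. The counts of members called moved as follows. In dorsal horn nivolumab against cancer, where none was called, DESeq2 called 2, and the replicate block, the ganglion covariate and the fit without sham 3 and cancer 3 called 1 each, with 0 to 1 when single libraries were left out. In dorsal horn nivolumab against sham the count of 1 was 2 with the 2 groups alone, 0 without sham 3 and cancer 3, and 0 to 1 without single libraries. DESeq2 called 1 in colon cancer against sham, and 1 each in the tissue differences of cancer against sham and of nivolumab against sham. Without single libraries the tissue difference of cancer against sham had 0 to 1 and that of nivolumab against cancer 0 to 2.

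Sign changes by setting were as follows. With the replicate block, Slco1a4 in dorsal horn nivolumab against cancer was 0.040 and Kdr in colon cancer against sham −0.044. Without sham 3 and cancer 3, Slco1a4 in dorsal horn nivolumab against cancer was 0.22 and Slco1c1 in dorsal horn cancer against sham −0.013. With the ganglion covariate, Kdr in dorsal horn nivolumab against sham was −0.078. Tie1 between sham tissues was 0.00011 with RLE factors and 0.00019 with DESeq2. The cause was not tested.

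Without single libraries, ranges that crossed 0 were −0.18 to 0.14 for Flt1, −0.30 to 0.29 for Slco1c1 and −0.28 to 0.062 for Cdh5 in dorsal horn cancer against sham, −0.017 to 0.27 for Cdh5 and −0.0093 to 0.40 for Tek in nivolumab against sham, and −0.32 to 0.22 for Slco1a4 and −0.092 to 0.51 for Slco1c1 in nivolumab against cancer. In the colon they were −0.53 to 0.68 for Kdr, −0.020 to 1.09 for Flt1 and −0.043 to 0.88 for Tie1 in cancer against sham, and −0.64 to 0.10 for Cdh5 and −1.10 to 0.11 for Kdr in nivolumab against cancer. Between tissues they were −0.27 to 0.25 for Tie1 in sham, −0.18 to 0.056 for Flt1 in the difference of nivolumab against sham, and −0.30 to 0.61 for Mfsd2a and −0.69 to 0.023 for Slco1c1 in that of nivolumab against cancer.

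Outside dorsal horn nivolumab against cancer, deviations of same-numbered libraries correlated at −0.13 to 0.65 in the dorsal horn and −0.51 to 0.50 in the colon, and in no comparison over 0.1 in all 3 pairs, so those numbers were not taken as pairs. With the replicate block Mfsd2a passed in dorsal horn nivolumab against sham (−0.69, adjusted p = 0.0103). Against cancer the block turned Mfsd2a into a call and changed no other call of a gene named there. The main limits are 3 libraries a group, the wide spread in the colon, and counts of 8 to 37 for colon Slco1c1.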
